A study of Drosophila melanogaster with 18 samples.

Results

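The cytosolic ribosomal protein genes of the fly were described here through 47 probe sets, for 41 genes, of 18952 probe sets on the array. A probe set was taken when it carried 1 gene symbol that starts with RpS, RpL or RpLP followed by a digit, or that is sta. The RefSeq gene table holds 93 genes with such a name, and the values cover 41 of these 93. The name is also carried by some relatives that are not part of the finished ribosome. Genes such as RpS6 and sta had no probe set with a single symbol and were not analysed here. Of the 47 probe sets, 20 (16 genes) stood for the small subunit by name. Another 23 (21 genes) stood for the large subunit, with the relatives RpL7-like and RpL24-like among them, and 4 (4 genes) for the stalk and its relative RpLP0-like. By mean signal, 32 were bright (a mean log2 of at least 12), 5 were of middle brightness and 10 were dim (a mean under 8), and 39 had a mean of at least 6. The bright class was set for description, and signals of different probe sets were not compared as transcript amounts.

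The ribosome is built of a small subunit, which reads the messenger RNA, and a large subunit, which joins amino acids, each made of ribosomal RNA and 1 copy of most ribosomal proteins. Their messages are among the most abundant in growing cells and are held in proportion, and flies that lose a copy of a single ribosomal protein gene develop slowly and have short, thin bristles, the Minute phenotype. Some of these genes have a duplicate, and several duplicates are used mainly in the germ line.

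The RNA came from the whole central nervous system (CNS) of late wandering larvae grown at 25 °C, with tissue of 20 larvae pooled in a sample and 3 samples prepared separately for each of 6 genotypes. Every genotype carried the driver nSyb-Gal4, which acts in post-mitotic neurons, whereas the sample also held glia and neuroblasts. The experimental genotypes were UAS-TFAM3M with UAS-Pnt RNAi JF02227 (TFAM o/e with Pnt RNAi), UAS-TFAM3M with UAS-Aop RNAi 3166R1 (TFAM o/e with Aop RNAi), UAS-TFAM3M alone (TFAM o/e), UAS-Pnt RNAi alone and UAS-Aop RNAi alone, and the control was nSyb-Gal4/+. TFAM is a mitochondrial DNA-binding protein whose excess disturbs mitochondrial gene expression, and Pnt and Aop are ETS transcription factors of the Ras-ERK pathway. The comparisons asked whether the ribosomal protein messages differed with TFAM o/e, with either knock-down, or with their combination. Fewer cells of a type and less RNA per cell cannot be told apart in such samples. The p-values measure only the spread between samples of the same genotype, which limma pools over the 6 genotypes.

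Values are MAS5.0 signals on the log2 scale, so a difference of 1 is a doubling. TFAM read 11.84 to 12.58 on the 9 arrays with TFAM o/e and 10.35 to 10.85 on the other 9. The aop probe set read 10.51 to 10.94 on the 6 arrays with Aop RNAi and 10.28 to 11.00 on the other 12, so the ranges overlapped, pnt had no probe set with a single symbol, and the knock-down genotypes are named as labelled. The array medians lay between 5.03 and 5.56. The neuronal marker elav read 11.58 to 12.46 and the glial marker repo 11.39 to 12.04 over the 18 arrays. Of 18769 probe sets tested, 147 (0.783%) differed between the 6 genotypes at an adjusted p under 0.05 by the F test of limma.

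The bright ribosomal protein probe sets moved as a block from array to array, and the block followed single arrays more than genotypes. Their median stood at 14.21, 12.98 and 13.35 on the 3 arrays of TFAM o/e with Pnt RNAi, at 13.18, 13.15 and 13.34 in TFAM o/e with Aop RNAi, and at 13.14, 13.25 and 13.49 in TFAM o/e. It stood at 12.99, 13.02 and 13.24 in Pnt RNAi, at 14.05, 12.96 and 12.78 in Aop RNAi, and at 13.04, 12.93 and 14.08 in the control. Replicate 1 of TFAM o/e with Pnt RNAi, replicate 1 of Aop RNAi and replicate 3 of the control lay at 14.05 to 14.21, and the other 15 arrays lay at 12.78 to 13.49, with no overlap. These 3 arrays came from 3 genotypes, and each was the highest of its genotype for all 32 bright members.

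**Figure D1:**
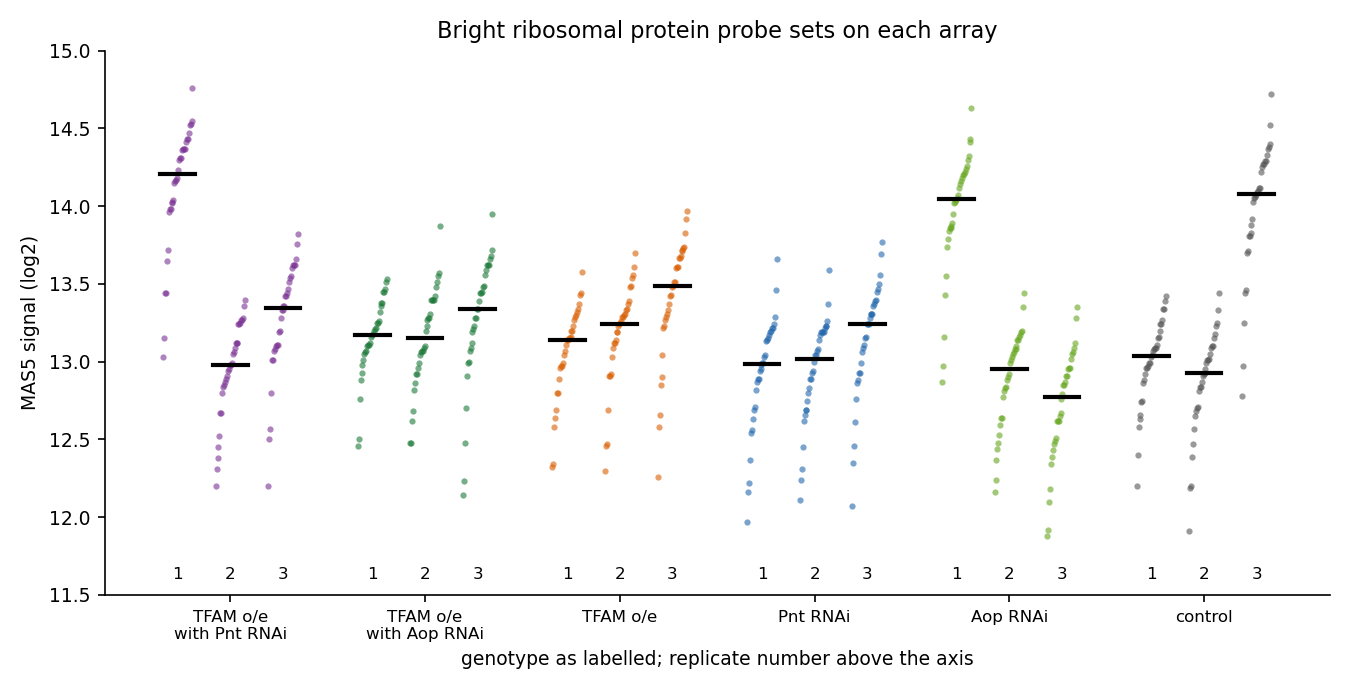
Log2 signal of the 32 bright ribosomal protein probe sets on each of the 18 arrays, grouped by genotype as labelled, with 1 point per probe set and a bar at the median of the array. Replicate 1 of TFAM o/e with Pnt RNAi, replicate 1 of Aop RNAi and replicate 3 of the control have medians of 14.05 to 14.21, and the other 15 arrays have medians of 12.78 to 13.49.

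RpS18, a small subunit protein at the head of that subunit, followed the block most closely. It read 14.47, 13.27 and 13.62 in TFAM o/e with Pnt RNAi, 13.45, 13.40 and 13.59 in TFAM o/e with Aop RNAi, 13.37, 13.48 and 13.74 in TFAM o/e, 13.20, 13.26 and 13.50 in Pnt RNAi, 14.26, 13.17 and 12.96 in Aop RNAi, and 13.27, 13.18 and 14.40 in the control. Its highest arrays were the 3 named above. On the other 15 arrays the values ran between 12.96 and 13.74, with both remaining Aop RNAi arrays below both remaining control arrays and all TFAM o/e arrays above them. Over the 18 arrays its correlation with the median of the other bright members was 0.998. Over the 32 bright members this correlation ran between 0.839 and 0.998 with a median of 0.983, and the points share libraries and 3 arrays that stand apart. The lowest were RpL24-like (0.839), RpL34a (0.854) and the bright probe set of RpL3 (0.905). Among the 5 probe sets of middle brightness the correlation lay between -0.388 and 0.731, and among the 10 dim ones between -0.474 and 0.720.

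The genotype means differed less than the arrays within the 3 genotypes that hold an array that stands apart. The median of the bright members averaged 13.51 ± 0.63 in TFAM o/e with Pnt RNAi, 13.22 ± 0.10 in TFAM o/e with Aop RNAi, 13.29 ± 0.18 in TFAM o/e, 13.08 ± 0.14 in Pnt RNAi, 13.26 ± 0.69 in Aop RNAi and 13.35 ± 0.64 in the control (SD, n = 3 each). The 6 means spanned 0.43, against a range of 1.27 within Aop RNAi and of 0.19 within TFAM o/e with Aop RNAi, the widest and the narrowest. The ranges within Pnt RNAi (0.255) and TFAM o/e (0.345) were also below that span. No neighbours in the order of the 6 means differed beyond this spread. Without the 3 arrays that stand apart, the means were 13.16 in TFAM o/e with Pnt RNAi, 12.87 in Aop RNAi and 12.98 in the control (n = 2 each), and the other genotypes were unaffected.

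Other bright messages were also raised on the 3 arrays, by a smaller amount. Relative to the mean of the other 2 arrays of its genotype, the median bright ribosomal protein probe set stood 1.02 higher on replicate 1 of TFAM o/e with Pnt RNAi, 1.19 higher on replicate 1 of Aop RNAi and 1.13 higher on replicate 3 of the control. The 356 other bright probe sets with 1 gene name stood 0.40, 0.55 and 0.53 higher on the same arrays. Those with a mean of at least 13 (27 probe sets) stood 0.84, 0.99 and 0.94 higher, against 1.04, 1.20 and 1.14 for the 25 bright members in that range. The median over the bright members minus that over the other bright probe sets was 1.37 to 1.45 on the 3 arrays and 0.645 to 0.995 on the other 15.

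Translation factors were also raised on the 3 arrays, whereas the mitochondrial ribosomal proteins, which make up the separate ribosome of the mitochondrion, overlapped between the arrays. The median of 31 probe sets of initiation and elongation factors was 12.31 to 12.36 on the 3 arrays and 11.73 to 12.13 on the other 15. The median of 71 probe sets of mitochondrial ribosomal proteins was 10.53 to 10.67 on the 3 arrays and 10.32 to 10.79 on the other 15. These lists differ in brightness as well as in function, and the part of brightness in this contrast was not tested. Over the 18 arrays, the correlation with the median of the bright members was 0.979 for the other bright probe sets (0.956 over the 15 arrays), 0.900 for the translation factors (0.658) and 0.350 for the mitochondrial ribosomal proteins (0.224). The array median over all tested probe sets, with a correlation of 0.037, was 5.17 to 5.42 on the 3 arrays and 5.03 to 5.56 on the others.

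**Figure D2:**
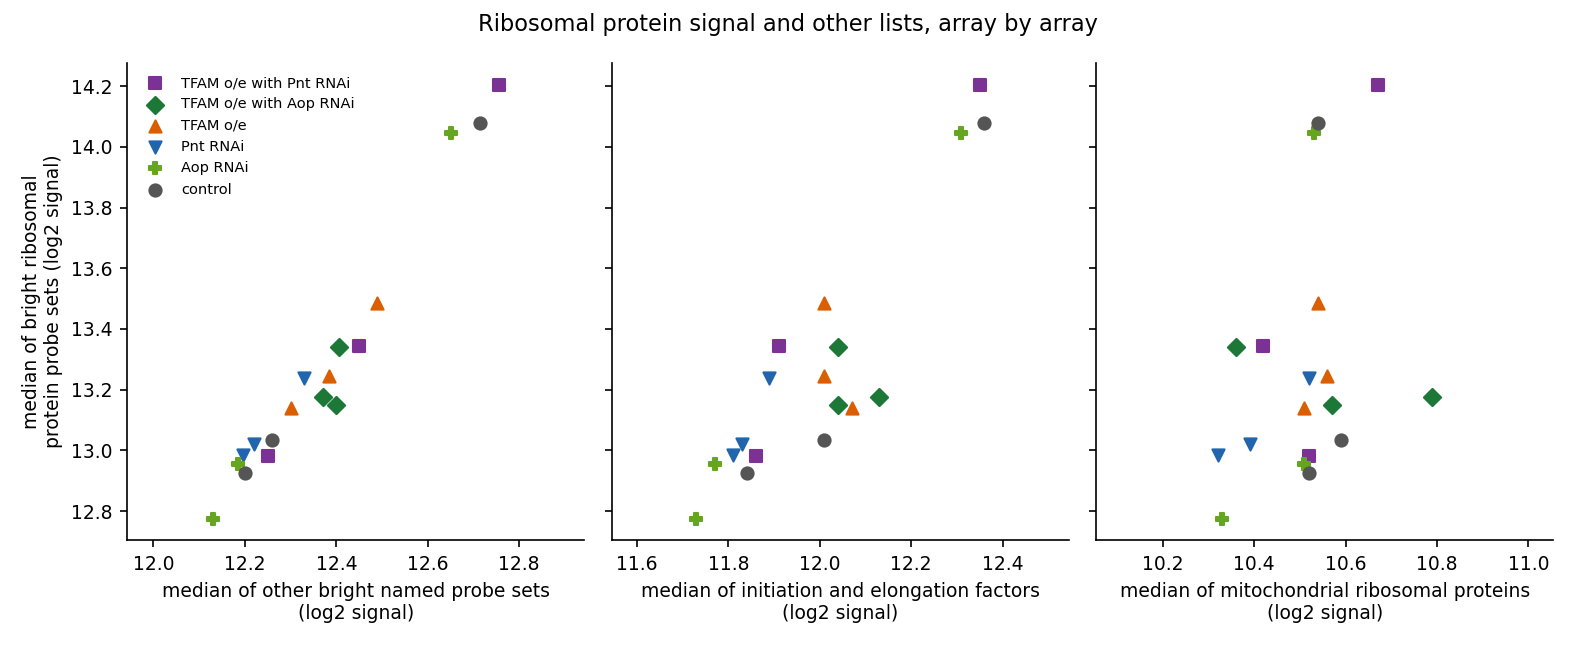
Median log2 signal of the 32 bright ribosomal protein probe sets on each array (vertical axis) against the median of 356 other bright named probe sets, of 31 probe sets of initiation and elongation factors and of 71 of mitochondrial ribosomal proteins (horizontal axes), with 1 point per array and a marker for each genotype. The 3 arrays above 14 are also the highest in the first and middle panels, but not in the panel of mitochondrial ribosomal proteins.

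Signs of RNA quality and of another tissue were high on replicate 3 of the control, and less or not at all on the other 2 arrays that stand apart. The signal of actin probes at the 3′ end minus that at the 5′ end was 1.11 on replicate 1 of TFAM o/e with Pnt RNAi, 1.48 on replicate 1 of Aop RNAi and 2.74 on replicate 3 of the control, against 0.43 to 1.33 on the other 15 arrays. Its correlation with the median of the bright members was 0.621 over 18 arrays and 0.389 over the 15. The same difference for GAPDH was 1.93, 2.33 and 2.92 on the 3 arrays in that order, against 0.97 to 2.35 on the others. For eIF4A it was 2.16, 2.61 and 3.90, against 1.45 to 2.80. For 18S ribosomal RNA it was 1.80, 1.96 and -1.04, against 1.04 to 4.00. Their correlations with the median of the bright members over 18 arrays were 0.544, 0.553 and -0.573. Of 21 testis genes, 15 read highest of all 18 arrays on replicate 3 of the control, where their median was 6.85 against 1.77 to 5.44 over the other 17, and 7 were at 0 on at least 1 array. The median of 7 germ line genes was 6.30 on that array and 4.98 to 6.21 on the others, but only 2 of the 7 read highest of all 18 arrays there. The testis median was 4.25 on replicate 1 of TFAM o/e with Pnt RNAi and 3.39 on replicate 1 of Aop RNAi, within the range of the other arrays. With the actin difference as a covariate, the median over the bright members was 0.14 for TFAM o/e, -0.16 for Pnt RNAi and 0.04 for Aop RNAi against the control and 0.27 for the interaction of TFAM o/e and Pnt RNAi, against -0.08, -0.29, -0.09 and 0.53 without it, and no member was called. The part of gonad RNA in the ribosomal protein values was not tested.

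No ribosomal protein probe set passed an adjusted p of 0.05 in any of 12 comparisons by limma, and none in the 9 pairwise comparisons by the methods' unpaired test after Benjamini-Hochberg adjustment. At an unadjusted p under 0.05, limma gave 11 of 564 tests (1.95%), against 5.65% of all tests over the 12 comparisons, and the methods' test gave 10 of 423 (2.36%), against 5.09% over its 9. None of either was of a bright member. By the F test over the 6 genotypes, 1 of the 47 (2.13%) had an unadjusted p under 0.05, against 6.49% of all tested probe sets. Comparisons that use the same control arrays are not independent of each other, and their values are given side by side only.

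With TFAM o/e, the median difference from the control was -0.08 over the bright members and -0.07 over all 47, against -0.03 over all probe sets tested. None of the 47 was called, against 0.181% of all probe sets, and 0 had an unadjusted p under 0.05, against 5.53%. The bright members lay between -0.15 and 0.02, and their 95% intervals reached down to -0.90 and up to 0.75. The arrays of both genotypes overlapped for all but RpL37-2, which was higher with TFAM o/e (3.36% of all probe sets), and RpLP0-like, which was lower (5.49%).

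With Pnt RNAi, the bright members differed from the control by -0.39 to -0.15 with a median of -0.29, and their 95% intervals ran between -1.14 and 0.60. The median over all 47 was -0.28, against -0.01 over all probe sets and -0.14 over the other bright ones. None was called (0.293% of all probe sets), and 2, RpS19b and RpS5b, had an unadjusted p under 0.05 (7.24%). RpS19b was higher on every Pnt RNAi array than on every control array (6.21%), and RpS5b and RpLP0-like were lower on every one (6.97%). Without the 3 arrays that stand apart, which here removes replicate 3 of the control, the median over the bright members was 0.08.

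With Aop RNAi, the bright members differed from the control by -0.23 to -0.03 with a median of -0.09, and their intervals ran from -0.88 to 0.71. None was called (0.176%), and RpS19b and RpL7-like had an unadjusted p under 0.05 (5.73%). The arrays did not overlap for RpS19b alone, which was higher (4.21%), and no member was lower (4.38%). The median over the bright members was -0.15 without the 3 arrays, and it was positive without them in the other 4 comparisons with the control.

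Both combinations overlapped with the control for every bright member. For TFAM o/e with Pnt RNAi the bright members lay between 0.04 and 0.24 with a median of 0.17 (intervals from -0.67 to 0.97), none was called (0.325%) and 1, RpS19b, had an unadjusted p under 0.05 (8.49%), and was higher without overlap (4.96%), with none lower (6.72%). For TFAM o/e with Aop RNAi they lay between -0.22 and 0.04 with a median of -0.09 (intervals from -0.92 to 0.81), none was called (0.229%), and 1, RpS19b, had an unadjusted p under 0.05 (6.11%). RpS19b and the dim RpL3 probe set 1634685_at were higher without overlap there (4.1%), with none lower (4.91%). The medians over the bright members were 0.19 and 0.27 without the 3 arrays.

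Set against TFAM o/e alone, TFAM o/e with Pnt RNAi gave a median of 0.24 over the bright members (0.12 to 0.34, intervals from -0.56 to 1.06) with none called (0.16%) and 1 at an unadjusted p under 0.05 (4.6%). RpS19b and RpS10a were higher without overlap (5.17%), and none was lower (4.36%). This median was -0.11 without the 3 arrays. TFAM o/e with Aop RNAi gave a median of -0.01 (-0.15 to 0.12, intervals from -0.86 to 0.90) with none called (0.0959%) and 1 at an unadjusted p under 0.05, RpS28-like (3.41%). This comparison holds none of the 3 arrays, but its intervals carry their spread through the pooled fit. RpS28-like and the RpL3 probe set 1634685_at were higher without overlap (4.08%), and none was lower (3.32%).

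Set against the matching knock-down alone, TFAM o/e with Pnt RNAi gave the largest median of the 9 pairwise comparisons, 0.44 over the bright members (0.31 to 0.55, intervals from -0.48 to 1.30), with none called (0.139%) and 1 at an unadjusted p under 0.05, RpS5b (6.26%). RpL24-like, RpL34a, RpS5b and RpS10a were higher without overlap (6.83%), and none was lower (7.67%). Without replicate 1 of TFAM o/e with Pnt RNAi the median was 0.10. TFAM o/e with Aop RNAi gave a median of 0.01 against Aop RNAi (-0.12 to 0.13, intervals from -0.83 to 0.91), with none called (0.208%), 1 at an unadjusted p under 0.05, RpS28-like (4.42%), and none without overlap (3.6% of all probe sets were higher and 4.62% lower).

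The interaction of TFAM o/e and Pnt RNAi had a median of 0.53 over the bright members (0.35 to 0.63, intervals from -0.71 to 1.69), with none of the 47 called (0.0266%) and 0 at an unadjusted p under 0.05 (4.42%). The median was -0.17 without the 3 arrays and 0.03 after quantile normalization. That scaling gives every array the same distribution of signals, so it largely removes a shift shared by the brightest probe sets. The interaction with Aop RNAi had a median of 0.08 (intervals from -1.08 to 1.32), none called (0.0533%) and 1 at an unadjusted p under 0.05, RpS28-like (3.99%). Averaged over the 3 backgrounds, TFAM o/e gave a median of 0.12 (0.04 to 0.19, intervals from -0.39 to 0.63), none called (0.543%) and 0 at an unadjusted p under 0.05 (7.64%).

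**Figure D3:**
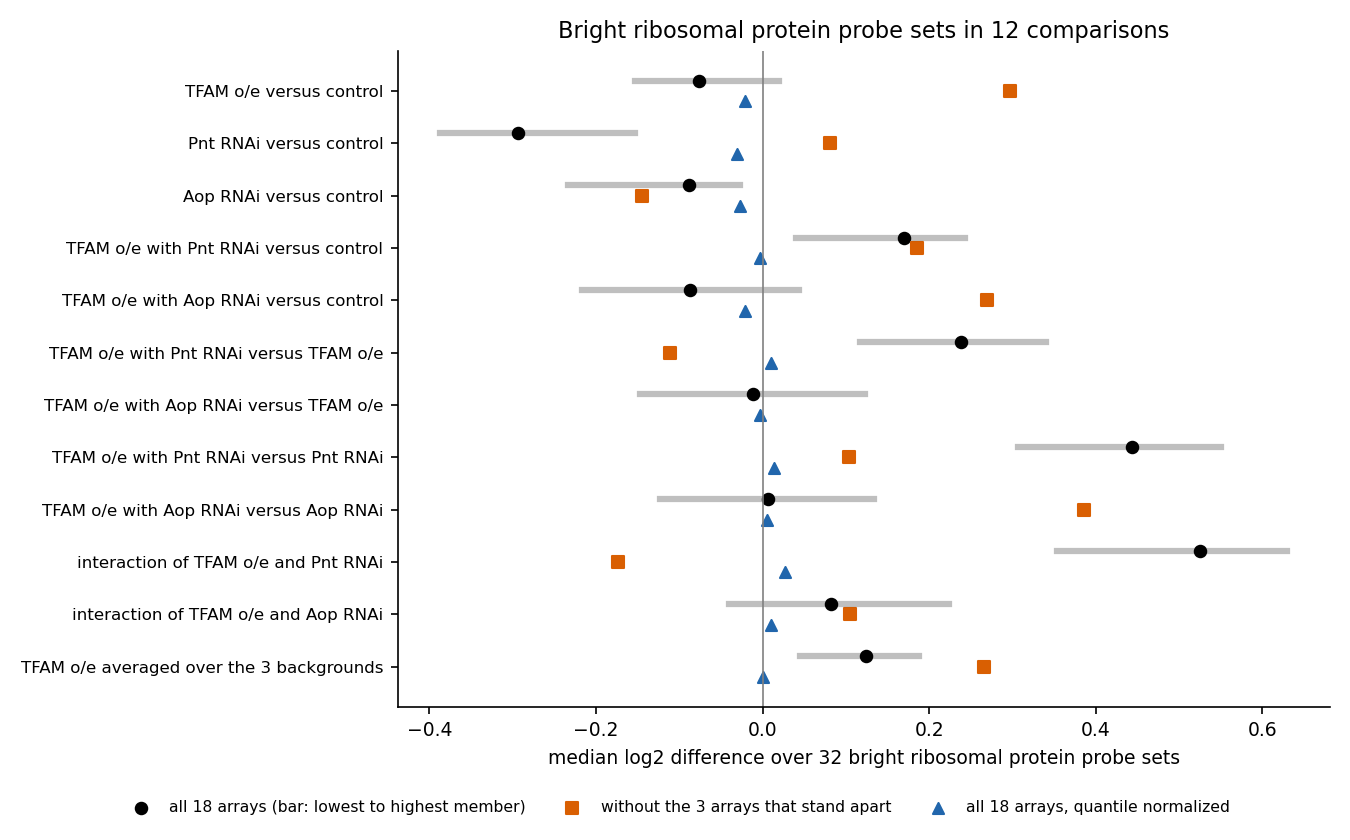
Median log2 difference over the 32 bright ribosomal protein probe sets in the 12 comparisons, with all 18 arrays (circles, with a bar between the lowest and the highest member), without the 3 arrays that stand apart (squares) and after quantile normalization (triangles). The comparison of TFAM o/e with Aop RNAi and TFAM o/e holds none of the 3 arrays and has no square. The medians with all arrays run between -0.29 and 0.53, those without the 3 arrays between -0.17 and 0.39, and those after quantile normalization lie near 0. Quantile normalization largely removes a shift shared by the brightest probe sets.

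Once the 3 arrays were left out, the arrays with TFAM o/e tended to read higher for the whole block. The median of the bright members was 12.98 to 13.49 on the 8 remaining arrays with TFAM o/e (median 13.21) and 12.78 to 13.24 on the 7 without it (median 12.99), and the ranges overlapped. The median difference was 0.30 for TFAM o/e against the control, 0.39 for TFAM o/e with Aop RNAi against Aop RNAi, and 0.27 for TFAM o/e averaged over its backgrounds. In these comparisons 12, 28 and 29 of the 47 had an unadjusted p under 0.05, against 5.67%, 8.85% and 11.7% of all probe sets, and none was called by limma, against 0.165%, 0.186% and 0.559% (smallest adjusted p 0.0807, RpS15). The other bright named probe sets shifted the same way, with medians of 0.18, 0.23 and 0.17, and 42 (11.8%), 145 (40.7%) and 191 (53.7%) of the 356 had an unadjusted p under 0.05. The arrays left out were chosen from these same values, so the counts are a description. After quantile normalization of the 15 arrays, the average had a median of 0.01 and 0 of 47 at an unadjusted p under 0.05 (7.94% of all probe sets). Since that scaling largely removes a shift shared by the brightest probe sets, it cannot show whether the block shifted. When these arrays were instead shifted by the other bright probe sets, medians of 0.14, 0.15 and 0.10 remained in the 3 comparisons, with 1, 12 and 6 of the 47 at an unadjusted p under 0.05, against 8.46%, 16.8% and 24.7% of all probe sets. The shift is applied to every probe set, so it also moves these shares. On the 15 arrays the median of the other bright probe sets was 12.13 to 12.49, below the 12.78 to 13.49 of the bright members. The shift was therefore not matched to the members in brightness, and the part of brightness in the medians that remained was not tested. Of the 356 other bright named probe sets, from which the shift is taken, 8 (2.25%), 28 (7.87%) and 26 (7.3%) had an unadjusted p under 0.05.

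The stalk of the large subunit is formed by RpLP0, which anchors it to ribosomal RNA, and dimers of the acidic proteins RpLP1 and RpLP2, and it recruits elongation factors. RpLP0 read 13.44, 12.45 and 12.80 in TFAM o/e with Pnt RNAi, 12.88, 12.68 and 12.70 in TFAM o/e with Aop RNAi, 12.58, 12.69 and 12.85 in TFAM o/e, 12.37, 12.45 and 12.61 in Pnt RNAi, 13.43, 12.37 and 12.18 in Aop RNAi, and 12.58, 12.39 and 13.46 in the control. RpLP1 averaged 13.60 ± 0.69, 13.30 ± 0.06, 13.35 ± 0.11, 13.05 ± 0.09, 13.38 ± 0.75 and 13.43 ± 0.55 in the same order of genotypes, and RpLP2 averaged 13.76 ± 0.67, 13.41 ± 0.11, 13.54 ± 0.15, 13.28 ± 0.15, 13.50 ± 0.80 and 13.60 ± 0.54 (SD, n = 3). All 3 stalk proteins followed the block, and each genotype with a wide SD held 1 of the arrays that stand apart.

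RpS27A and RpL40 are made as fusions with ubiquitin, and so are a source of free ubiquitin as well as of ribosomal protein. RpS27A read 14.36, 13.25 and 13.62 in TFAM o/e with Pnt RNAi, 13.17, 13.51 and 13.68 in TFAM o/e with Aop RNAi, 13.16, 13.37 and 13.68 in TFAM o/e, 13.22, 13.19 and 13.37 in Pnt RNAi, 14.16, 13.14 and 13.12 in Aop RNAi, and 13.03, 13.10 and 14.37 in the control. RpL40 read 14.31, 12.91 and 13.28, then 13.22, 13.07 and 13.28, 13.15, 13.25 and 13.51, 13.03, 13.17 and 13.24, 14.03, 12.99 and 12.62, and 13.04, 12.81 and 14.06 in the same genotypes. Both followed the block with no genotype standing apart. RpL40 had the smallest p of the 47 for TFAM o/e against the control once the 3 arrays were left out (adjusted p = 0.837 from limma).

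The other bright members behaved alike. RpS12, a small subunit protein that flies need for the removal of Minute cells by their neighbours, read 14.41, 13.05 and 13.47 in TFAM o/e with Pnt RNAi, 13.36, 13.40 and 13.45 in TFAM o/e with Aop RNAi, 13.29, 13.33 and 13.60 in TFAM o/e, 13.14, 13.19 and 13.31 in Pnt RNAi, 14.18, 13.03 and 12.87 in Aop RNAi, and 13.20, 12.93 and 14.33 in the control. Its 3 highest arrays were those of the block, and every genotype overlapped with the control over its 3 arrays. RpL41, a very short protein of the large subunit, lay between 13.28 and 14.76 over the 18 arrays. RpL32, long used as a reference message for quantitative PCR in flies under the name rp49, lay between 13.06 and 14.53. Its array signal moved with the block by over 1 on the log2 scale between arrays of 1 genotype. Whether it would also move by quantitative PCR was not tested. RpS15 lay between 12.49 and 13.98 and RpL23 between 12.34 and 13.96; RpS15 is part of the head of the small subunit and RpL23 lies at the face of the large subunit that meets it. The remaining bright members, RpL15, RpL17, RpL27, RpL28, RpL29, RpL36A, RpL37A and RpL39 of the large subunit and RpS20, RpS21 and RpS26 of the small subunit, had correlations with the block between 0.971 for RpL39 and 0.992 for RpL15. For 25 of the 32 bright members the array order had the same ends as in the block, with the highest signal on replicate 1 of TFAM o/e with Pnt RNAi and the lowest on replicate 3 of Aop RNAi.

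A few names in the family belong to relatives that take part in building the large subunit and are not part of the finished ribosome. RpL24-like, RpL7-like and RpLP0-like are related to the yeast assembly factors Rlp24, Rlp7 and Mrt4. RpL24-like read 13.15, 12.38 and 12.50 in TFAM o/e with Pnt RNAi, 12.76, 12.48 and 12.23 in TFAM o/e with Aop RNAi, 12.64, 12.46 and 12.58 in TFAM o/e, 12.22, 12.31 and 12.35 in Pnt RNAi, 12.97, 12.44 and 11.92 in Aop RNAi, and 12.66, 12.20 and 12.97 in the control. It was raised on the 3 arrays by 0.54 to 0.79, the smallest shift of the bright members on each.

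RpL7-like and RpLP0-like shared the jump of the block on 1 array each. Relative to the other arrays of its genotype, RpL7-like stood 0.015 higher on replicate 1 of TFAM o/e with Pnt RNAi, 0.085 higher on replicate 1 of Aop RNAi and 0.435 higher on replicate 3 of the control, and RpLP0-like stood 0.725 higher on replicate 1 of Aop RNAi. RpL7-like read 11.70, 11.59 and 11.78 in TFAM o/e with Pnt RNAi, 11.73, 11.75 and 11.45 in TFAM o/e with Aop RNAi, 11.61, 11.54 and 11.76 in TFAM o/e, 11.49, 11.44 and 11.62 in Pnt RNAi, 11.54, 11.47 and 11.44 in Aop RNAi, and 11.86, 11.45 and 12.09 in the control. The control overlapped with every other genotype, and the difference of Aop RNAi from it was -0.32 (adjusted p = 0.854 from limma). RpLP0-like read 10.39, 10.47 and 10.35 in TFAM o/e and 10.20, 10.48 and 10.32 in Pnt RNAi, against 10.89, 10.59 and 10.56 in the control. Neither difference, -0.28 and -0.35, passed the test, and the interaction of TFAM o/e and Pnt RNAi was 0.60 (standard error 0.30, adjusted p = 0.960 from limma), with 10.77, 10.74 and 10.46 in the combined genotype.

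Several of the duplicated members were dim, and RpS19b came closest to a difference between genotypes. RpS19b is the copy of RpS19 that flies use mainly in the germ line. It read 7.82, 7.76 and 8.07 in TFAM o/e with Pnt RNAi, 7.86, 7.41 and 7.61 in TFAM o/e with Aop RNAi, 7.37, 7.42 and 6.86 in TFAM o/e, 8.30, 7.48 and 8.01 in Pnt RNAi, 7.69, 7.51 and 7.67 in Aop RNAi, and 7.30, 7.0 and 6.98 in the control. The 12 arrays with an RNAi transgene lay between 7.41 and 8.30 and the 6 without one between 6.86 and 7.42, a grouping chosen after the values were seen. The log2 difference from the control was 0.84 in Pnt RNAi (standard error 0.22, adjusted p = 0.187), 0.79 for TFAM o/e with Pnt RNAi (adjusted p = 0.206), 0.53 in Aop RNAi (adjusted p = 0.763) and 0.53 for TFAM o/e with Aop RNAi (adjusted p = 0.707), all from limma. Over 19 alternatives the first difference ran between 0.65 and 1.06, with adjusted p between 0.0772 and 0.758. The F test over the 6 genotypes had an adjusted p of 0.243. RpS19b was not raised on the 3 arrays that stand apart, and lay 0.10 below the other arrays of its genotype on replicate 1 of TFAM o/e with Pnt RNAi, 0.10 above on replicate 1 of Aop RNAi and 0.17 below on replicate 3 of the control.

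RpS5b, a duplicated small subunit gene most used in the ovary, was lowest with Pnt RNAi alone. It read 9.61, 9.28 and 9.48 in TFAM o/e with Pnt RNAi, 9.64, 9.24 and 9.08 in TFAM o/e with Aop RNAi, 9.24, 9.79 and 9.36 in TFAM o/e, 8.89, 9.15 and 8.90 in Pnt RNAi, 9.33, 9.51 and 9.30 in Aop RNAi, and 9.23, 9.48 and 9.32 in the control. All 3 Pnt RNAi arrays lay below those of TFAM o/e with Pnt RNAi and of the control. The difference of TFAM o/e with Pnt RNAi from Pnt RNAi was 0.48 (standard error 0.17, adjusted p = 0.658), and that of Pnt RNAi from the control was -0.36 (adjusted p = 0.674), both from limma, so neither held up against all probe sets.

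RpS28-like, RpL10Aa and RpL22-like were near the floor of the array. RpS28-like read 1.07, 3.09 and 3.37 in TFAM o/e with Pnt RNAi, 3.18, 4.58 and 4.26 in TFAM o/e with Aop RNAi, 0.90, 0.87 and 1.48 in TFAM o/e, 2.52, 3.17 and 3.86 in Pnt RNAi, 1.71, 1.20 and 3.19 in Aop RNAi, and 0.83, 1.75 and 4.98 in the control. The difference of TFAM o/e with Aop RNAi from TFAM o/e was 2.92 (standard error 0.93, adjusted p = 0.805 from limma), with no overlap, and it became 0.00 when signals under 32 were set to 32, since all its values lay under that floor. RpL10Aa was at 0 on 8 arrays and read 6.56 on replicate 3 of the control, its highest value, and 3.46 on replicate 1 of TFAM o/e with Pnt RNAi. Replicate 3 of the control was also the array with the highest testis median, and its part in the RpL10Aa value was not tested. RpL22-like, used in the testis, was at 0 on 4 arrays and reached 3.68 on replicate 2 of Pnt RNAi.

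RpS28a, RpS10a and RpL37-2 had dim probe sets. Of the partner copies, RpS28b (of RpS28a), RpL37-1 (of RpL37-2) and RpL10Ab (of RpL10Aa) belonged to the bright block, and the partner of RpS10a had no probe set among the members. Copies of a gene are alike in sequence, and whether their probes also bind each other's transcripts was not tested. RpS28a lay between 4.25 and 6.71, with its highest value on replicate 3 of the control. RpS10a read 5.84, 5.41 and 5.12 in TFAM o/e with Pnt RNAi, against 4.91, 4.52 and 4.98 in TFAM o/e and 4.27, 4.65 and 4.80 in Pnt RNAi. Both sets lay below the combined genotype, the second with a difference of 0.88 (adjusted p = 0.837 from limma). The control (5.01, 3.25 and 5.17) and Aop RNAi (5.66, 4.72 and 4.53) overlapped with it. The highest RpS10a value, 5.94, was on replicate 1 of TFAM o/e with Aop RNAi. RpL37-2 read 5.80, 5.89 and 6.0 in TFAM o/e, against 5.10, 5.42 and 5.72 in the control, a difference of 0.48 (adjusted p = 0.982 from limma).

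**Figure D4:**
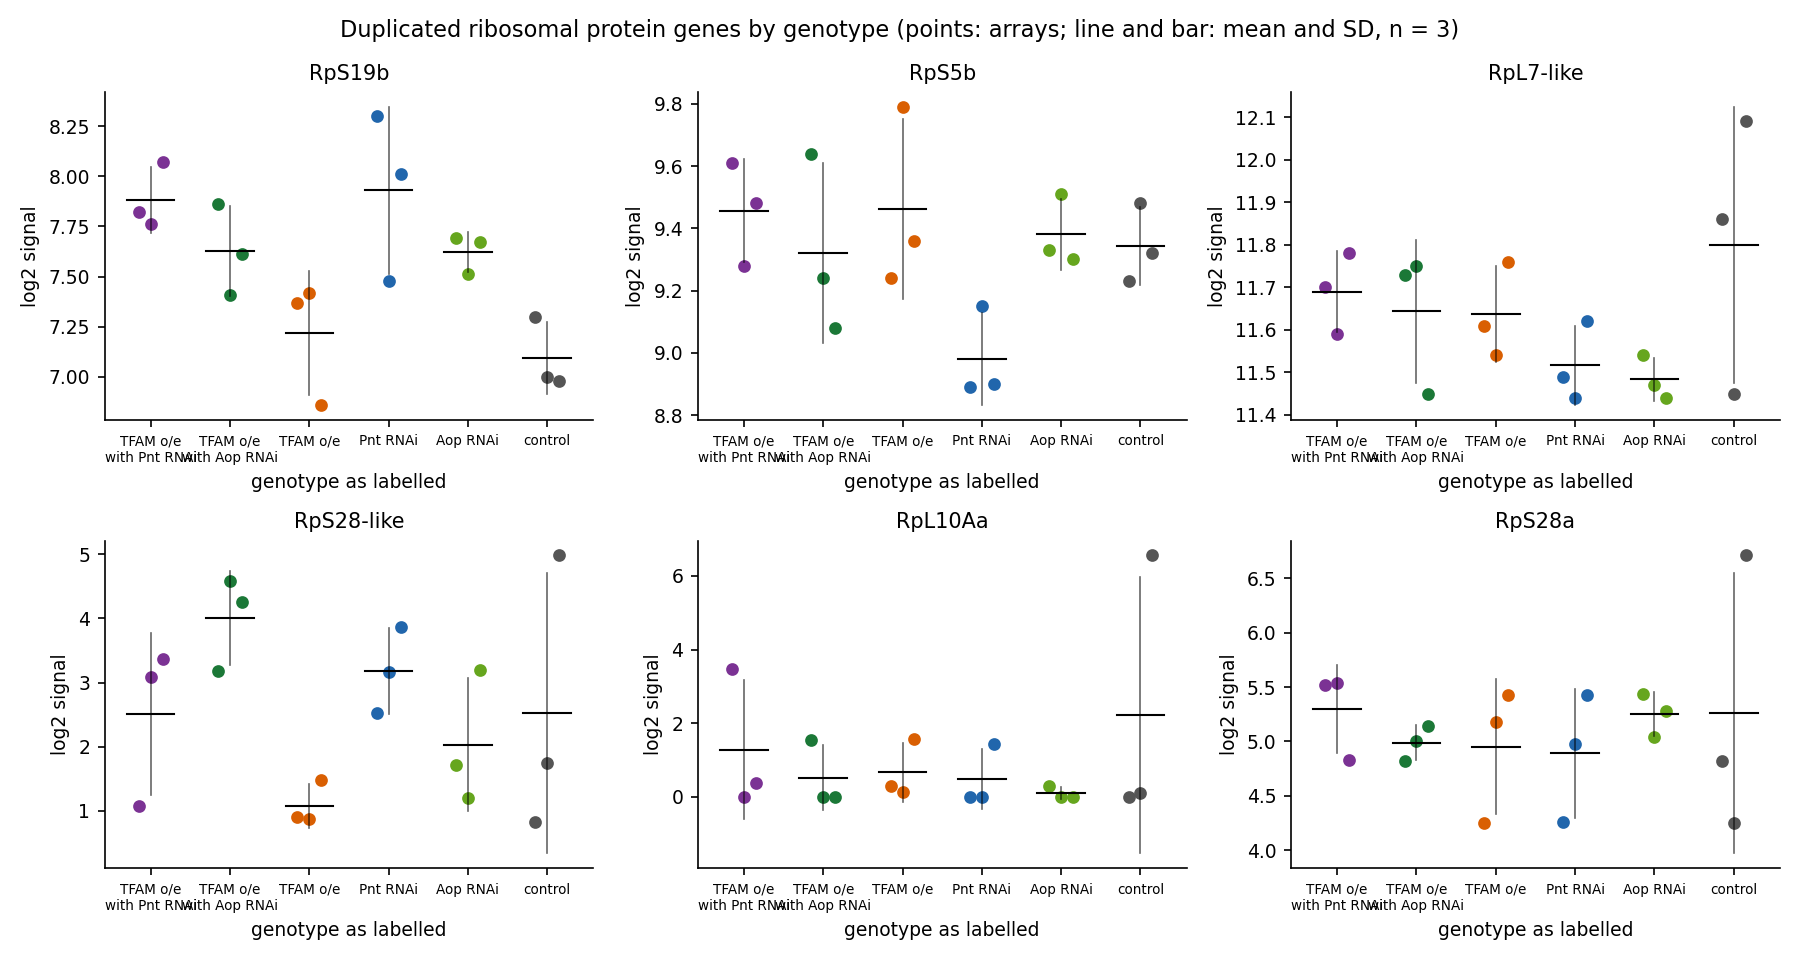
Log2 signal of 6 duplicated or related ribosomal protein genes by genotype as labelled, with 1 point per array and the mean and SD (n = 3), on axes that differ between panels. RpS19b lies between 7.41 and 8.30 in the 4 genotypes with an RNAi transgene and between 6.86 and 7.42 in the other 2. RpL7-like, RpS28a, RpS28-like and RpL10Aa have their highest point on replicate 3 of the control.

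Probe sets of the same gene did not always follow each other. RpL3 shapes the peptidyl transferase centre of the large subunit and had 3 probe sets. Its bright probe set 1630270_s_at read 13.72, 12.80 and 13.10 in TFAM o/e with Pnt RNAi, 13.84, 12.59 and 12.39 in Aop RNAi and 12.88, 12.70 and 13.44 in the control, as the block did. The probe set 1625889_at read 9.64, 9.34 and 9.27, then 9.47, 9.93 and 9.29, and 10.25, 9.71 and 8.65 in the same genotypes, so replicate 3 of the control was its lowest array. Over 18 arrays the correlation was -0.169 between these, 0.546 between 1625889_at and the dim 1634685_at, and -0.400 between 1630270_s_at and 1634685_at. The dim probe set read 5.32, 5.29 and 5.57 in TFAM o/e with Aop RNAi, against 4.61, 4.67 and 4.53 in TFAM o/e and 5.06, 5.26 and 4.07 in the control, differences of 0.79 (adjusted p = 1.0 from limma) and of 0.60 that did not pass the test.

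RpS29, a small zinc-binding protein of the small subunit, had a pair of bright probe sets with a correlation of 0.992 and a dim one, 1625248_at, which lay between 5.68 and 6.98 and had correlations of -0.446 and -0.448 with them. RpS30, made as a fusion with a ubiquitin-like protein, had probe sets of which the weaker, 1625943_at, lay between 8.05 and 9.57 and had a correlation of 0.753 with the bright one. The dim probe set of RpS7, 1627181_at, was at 0 on replicate 2 of the control and reached 4.35, with a correlation of 0.448. Its difference of Pnt RNAi from the control was 0.81 with limma and -0.55 with the averages of the methods' test. These correlations share the 18 libraries and describe them only.

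**Figure D5:**
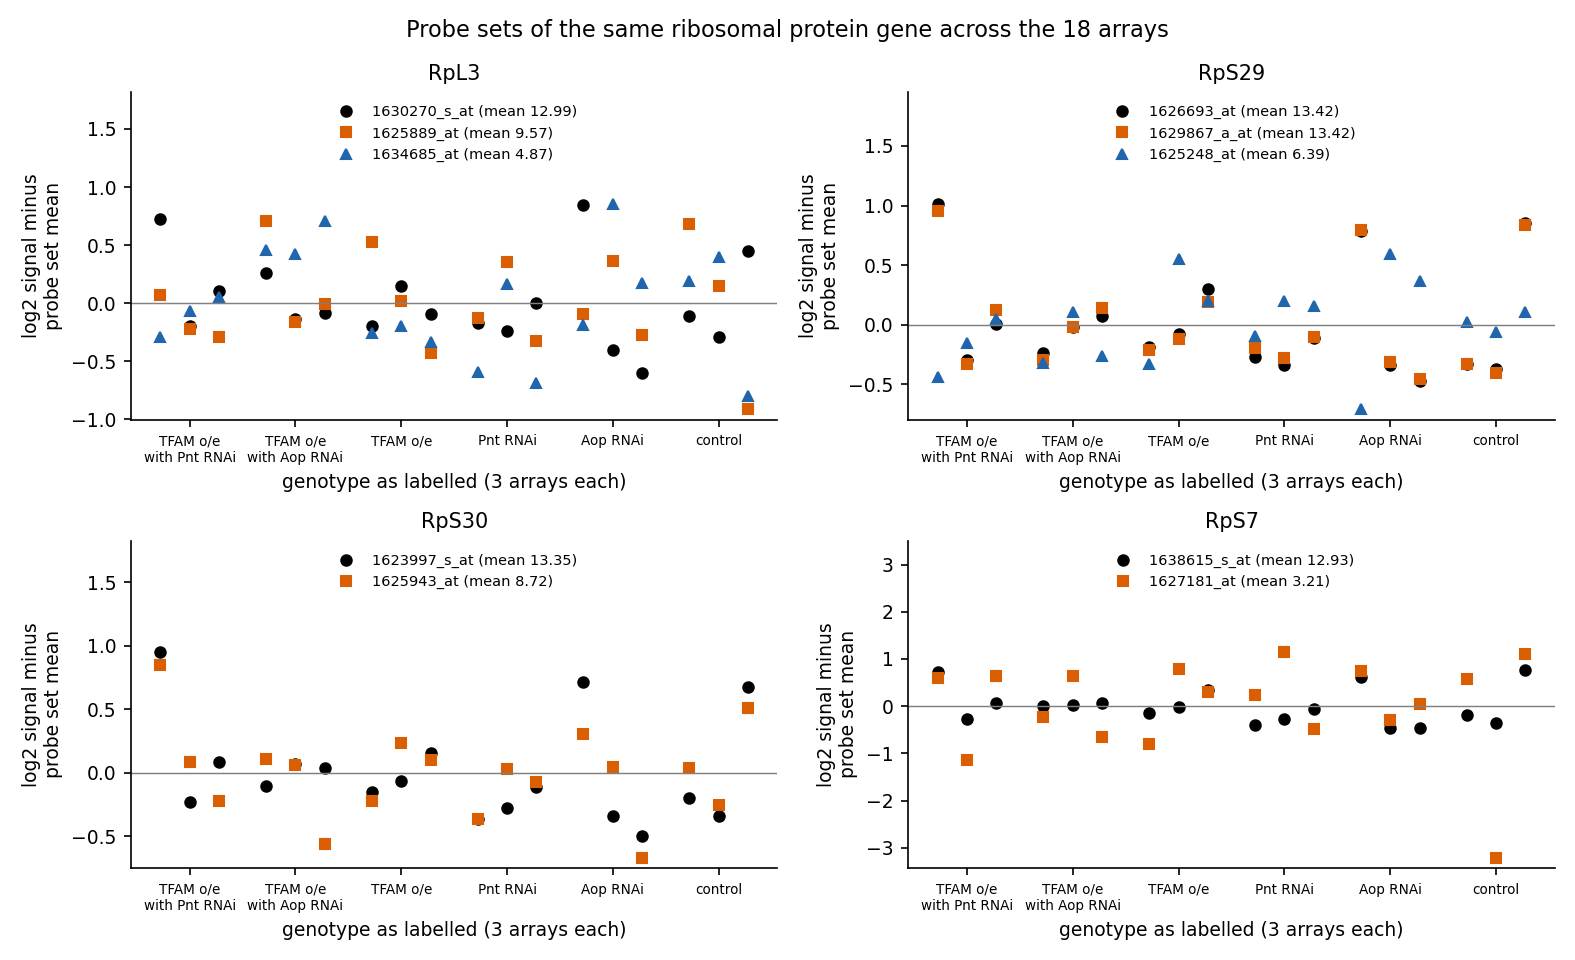
Log2 signal minus the mean of the probe set for each probe set of RpL3, RpS29, RpS30 and RpS7 on the 18 arrays, grouped by genotype as labelled. The bright probe sets share their high points on replicate 1 of TFAM o/e with Pnt RNAi, replicate 1 of Aop RNAi and replicate 3 of the control, whereas 1625889_at of RpL3 has its lowest point on the last of these.

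The other genes of the pathway were not called either. None of 71 probe sets of mitochondrial ribosomal proteins, 31 of initiation and elongation factors, 31 of ribosome biogenesis and 18 of regulators of ribosomal protein genes or of the Minute response passed an adjusted p of 0.05 in any of the 12 comparisons by limma. Over the 12 comparisons, 21 of 852 tests (2.46%), 7 of 372 (1.88%), 25 of 372 (6.72%) and 8 of 216 (3.7%) in these lists had an unadjusted p under 0.05, against 5.65% of all tests. The highest counts in a comparison were 5 of 71 mitochondrial ribosomal proteins for Pnt RNAi against the control and for TFAM o/e with Pnt RNAi against Pnt RNAi (7.24% and 6.26% of all probe sets), and 5 of 31 ribosome biogenesis probe sets for TFAM o/e with Pnt RNAi against the control (8.49%). The closest was Irbp18, the partner of Xrp1 in the cellular response to lost ribosomal protein genes. It read 9.65, 9.85 and 9.51 in TFAM o/e with Pnt RNAi, 9.58, 9.86 and 9.37 in TFAM o/e with Aop RNAi and 9.74, 9.65 and 9.58 in TFAM o/e, against 9.10, 9.30 and 9.45 in Pnt RNAi, 8.94, 9.25 and 9.29 in Aop RNAi and 9.44, 9.38 and 8.92 in the control. The ranges overlapped over all arrays, and the difference of TFAM o/e averaged over the backgrounds was 0.41 (standard error 0.096, adjusted p = 0.0679 from limma).

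Among mitochondrial ribosomal proteins, mRpL45 read 9.37, 9.47 and 9.27 in TFAM o/e with Pnt RNAi, against 9.88, 10.09 and 10.17 in TFAM o/e, with no overlap and a difference of -0.68 (adjusted p = 0.109 from limma). The small subunit protein mRpS6 read 10.02, 9.90 and 9.95 in Pnt RNAi, against 10.57, 10.52 and 10.89 in the control, a difference of -0.70 (adjusted p = 0.164 from limma). Gar1, of the snoRNA particles that modify ribosomal RNA, had a difference of 0.31 in TFAM o/e averaged over the backgrounds (adjusted p = 0.205 from limma), and Dref, a transcription factor of growth genes, one of -0.25 (adjusted p = 0.361 from limma). The initiation factor eIF5B, which joins the subunits, had a difference of -0.50 between TFAM o/e with Pnt RNAi and the control (adjusted p = 0.275 from limma). Each missed the threshold.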

How the data were processed

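RNA of 18 samples, amplified with NuGEN Ovation V2, was hybridised to Affymetrix Drosophila Genome 2.0 arrays. The authors made the log2 signals with the MAS5.0 algorithm in the Transcriptome Analysis Console, and the deposited log2 values were used without further scaling. With 3 arrays a genotype, precision is limited by their number. Of 18952 probe sets, 183 controls were left out. Platform symbols were updated by Entrez identifier through RefSeq (13647 tested probe sets had 1 symbol, 402 several and 4720 none), and 3 ribosomal probe sets with several symbols were not used.

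One model with the 6 genotypes was fitted to 18769 probe sets with limma 3.58.1 in R 4.3.3 (lmFit, eBayes with trend, 18.2 degrees of freedom). P-values were adjusted by Benjamini-Hochberg within each comparison and called under 0.05, and the steps were checked on simulated data. The methods' unpaired test, with Tukey bi-weight averages, was also run. Named members are, in each comparison, the 2 smallest p in each direction, every duplicated copy, genes whose probe sets disagree, stalk proteins and ubiquitin fusions, and up to 4 genes of each other list by p. Others were named after their values were seen. Members, lists and tests were chosen with earlier results of these data known.

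The results were recomputed with quantile normalization or median centring, among probe sets whose mean reached 6, with 32 as the lowest signal, without the trend, on the compared arrays alone, with replicate numbers as blocks, by the methods' test and without each array. Chosen after seeing the data were a fit without the 3 arrays that stand apart, alone, with quantile normalization or with a shift by the other bright probe sets, that shift on all arrays, and the actin 3′ minus 5′ difference as a covariate. Plots were made in Python 3.11.15 (matplotlib 3.10.9).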

Additional observations from a re-analysis of the deposited data

How the results depend on the processing

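Of 255 alternative counts of ribosomal protein probe sets called in a comparison, 249 were 0, as with all arrays. The others came from the methods' test at its own thresholds, an unadjusted p under 0.05 and 1.5-fold: 1 for Pnt RNAi, 1 for Aop RNAi, 1 for TFAM o/e with Pnt RNAi and 1 for TFAM o/e with Aop RNAi against the control, 2 for TFAM o/e with Aop RNAi against TFAM o/e, and 1 for TFAM o/e with Pnt RNAi against Pnt RNAi. The shares of the 47 were 2.13% to 4.26%, against 2.59% to 3.48% of all probe sets in these comparisons. Once replicate numbers entered as a block, 0 were called in each of the 12 comparisons and 12 of 564 (2.13%, against 6.9% of all tests) had an unadjusted p under 0.05, against 11 without it. Correlations of the deviations over 0.1 for all 3 replicate numbers were found only for TFAM o/e with Pnt RNAi. They were 0.171, 0.268 and 0.233 against the control (8582 probe sets) and 0.335, 0.177 and 0.429 against TFAM o/e. In every other comparison at least 1 was under 0.1, down to -0.139 for replicate 2 of TFAM o/e against the control. The labels state no pairing, and these values do not establish one. Without the 3 arrays that stand apart, 85 of 517 tests (16.4%, against 6.4% of all tests) had an unadjusted p under 0.05, 15 (2.9%, against 5.83%) with quantile normalization added, and 31 (6.0%, against 8.86%) with the shift by the other bright probe sets added. The shift is applied to every probe set, so it also moves the share over all tests. The cause of these changes was not tested.

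The median over the bright members for the interaction of TFAM o/e and Pnt RNAi, 0.53 with all arrays, was 0.03 with quantile normalization, -0.17 without the 3 arrays, 0.02 without them and with quantile normalization, and -0.11 without them and shifted by the other bright probe sets. Leaving out single arrays moved it between 0.16 and 0.79 (0.16 without replicate 1 of TFAM o/e with Pnt RNAi), and gave -0.29 to 0.30 for TFAM o/e, -0.50 to 0.08 for Pnt RNAi and -0.49 to 0.27 for Aop RNAi against the control, and 0.10 to 0.72 for TFAM o/e with Pnt RNAi against Pnt RNAi.

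Of 963 alternative values of 48 named differences, 30 changed sign and none became a call. Without the 3 arrays these were RpL7-like (0.03) and RpL10Aa (0.14) for TFAM o/e with Pnt RNAi against the control, RpL10Aa (0.47) for TFAM o/e with Aop RNAi against the control, RpS28-like (0.047) for TFAM o/e with Pnt RNAi against Pnt RNAi, and RpL22-like (0.20) for the average of TFAM o/e. With quantile normalization added, they were RpL10Aa at 0.14 and 0.56 and RpL22-like at 0.21. With the shift added, they were RpS5b at -0.053 for TFAM o/e and RpL10Aa at 0.028 for Aop RNAi, 0.02 and 0.31 for the combinations against the control, RpL7-like at -0.046 for TFAM o/e with Aop RNAi against Aop RNAi, and RpS5b at -0.025 and RpL22-like at 0.030 for the average. With the methods' test, they were RpS7 at -0.55 for Pnt RNAi, RpL10Aa at 0.15 for TFAM o/e with Pnt RNAi against the control and RpS28-like at 0.044 for TFAM o/e with Pnt RNAi against Pnt RNAi.

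Leaving out single arrays gave ranges that cross 0 for RpS5b with TFAM o/e (-0.043 to 0.23), RpS7 with Pnt RNAi (-0.54 to 1.62), RpL10Aa with Aop RNAi (-3.23 to 0.052), TFAM o/e with Pnt RNAi (-2.05 to 1.23) and TFAM o/e with Aop RNAi (-2.81 to 0.47), and RpL7-like with TFAM o/e with Pnt RNAi (-0.29 to 0.035), all against the control. The same held for RpL3 (-0.42 to 0.057) and RpS5b (-0.30 to 0.02) for TFAM o/e with Pnt RNAi and with Aop RNAi against TFAM o/e, RpS28-like (-1.10 to 0.047) and RpS29 (-0.64 to 0.013) against the matching knock-down, RpS7 in the interaction with Pnt RNAi (-1.69 to 0.47) and RpL22-like in the average (-0.64 to 0.014).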
